A study of Mus musculus with 12 samples.

Results

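Transcripts of 10 small leucine-rich proteoglycans (Dcn, Bgn, Aspn, Lum, Kera, Fmod, Prelp, Omd, Ogn and Podn) were followed in mouse embryonic fibroblasts that received a muscle-determining transcription factor. The 10 genes were taken from 37287 gene IDs by their symbols, and all 10 were present in both count tables. They were chosen with the measurements in view, because several of them were low with MyoD and Myf5 and Ogn was high with the Chimera. The contrasts of MyoD and Myf5 with GFP and of the Chimera with MyoD are therefore given for these genes as a description, without a test.

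Small leucine-rich proteoglycans are secreted proteins whose core is a curved stack of leucine-rich repeats, to which chondroitin, dermatan or keratan sulfate chains may be attached. They sit on collagen fibrils, limit how fibrils fuse and grow in width, and bind growth factors such as TGF-beta in the matrix. Fibroblasts are among their main producers, and they are classed by sequence: decorin (Dcn), biglycan (Bgn) and asporin (Aspn) belong to class I, lumican (Lum), keratocan (Kera), fibromodulin (Fmod), prolargin (Prelp) and osteomodulin (Omd) to class II, osteoglycin (Ogn) to class III, and podocan (Podn) to class V.

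All cells were M&M fibroblasts of the genotype MyoD-/-; Myf5-/-, so neither factor could come from an intact gene of the cell. Poly(A) RNA was sequenced 20 h after the cells were moved to differentiation medium. The Chimera library and a MyoD library of a second virus batch (1 each, both at the 1x dose) formed 1 count table. The other table held MyoD lentivirus (2 libraries, 1x and 2x), Myf5 lentivirus (2 libraries, 1x and 2x), GFP lentivirus (5 libraries, of which 1 was at 1x and 4 formed a series in multiplicity of infection, MOI, at 15, 30, 60 and 120) and cells without virus (1 library). The sources used here give neither the relation of the 1x dose to an MOI nor the makeup of the Chimera protein. In the table with the GFP libraries no dose of a factor was repeated, so the spread between the libraries of a factor there holds the dose difference, and the repeat of 1x MyoD stands in the Chimera table.

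The MOI libraries held 17.9 to 22.4 M (mega) counts, the other 6 libraries fitted with them held 68.3 to 81.5 M, and the Chimera and second-batch MyoD libraries held 25.1 and 23.7 M. Levels are given as CPM, a gene's count scaled by the total of its library. Myod1 stood at 309 and 617 CPM with 1x and 2x MyoD and at most at 5.99 CPM in the Myf5, GFP and untransduced libraries, and Myf5 at 149.5 and 249 CPM with 1x and 2x Myf5 and at most at 24.4 CPM in the MyoD, GFP and untransduced libraries, as the labels state. All 10 fibroblast markers were detected at 1 CPM or more in every group, while endothelial and epithelial marker sums were at most 2.53 CPM in any library. The GFP libraries were not alike: the smooth muscle marker sum was 554 CPM in the 1x GFP library and 239 to 287 CPM in the MOI libraries, and the log2 differences of members from GFP are therefore given for all 5 libraries and for 1x GFP alone.

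The members lie in 3 gene neighbourhoods and at 2 lone positions. In the RefSeq order of protein-coding genes, Dcn, Lum and Kera are followed by Epyc on chromosome 10, Aspn, Omd and Ogn follow Ecm2 on chromosome 13, and Prelp and Fmod adjoin Optc on chromosome 1, while Bgn is on chromosome X and Podn on chromosome 4. Of the 10 members, 8 had a RefSeq promoter entry (build GRCm38.p6, 9 entries of 300 bases). The promoters of the 4 members with the highest Chimera level relative to MyoD among those with at least 50 counts are shown, 5′ to 3′ on the strand of the gene, with every E-box in capitals. The E-box CANNTG, the core sequence that MyoD and Myf5 bind, reads the same on both strands.
Ogn, chr13:49607765-49608064 (+): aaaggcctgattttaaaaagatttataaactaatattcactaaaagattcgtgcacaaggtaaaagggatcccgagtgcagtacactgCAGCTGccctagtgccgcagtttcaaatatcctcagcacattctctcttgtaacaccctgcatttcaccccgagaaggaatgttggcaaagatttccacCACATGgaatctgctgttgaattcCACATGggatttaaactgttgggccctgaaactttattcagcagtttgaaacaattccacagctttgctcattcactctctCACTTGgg
Kera, chr10:97606955-97607254 (+): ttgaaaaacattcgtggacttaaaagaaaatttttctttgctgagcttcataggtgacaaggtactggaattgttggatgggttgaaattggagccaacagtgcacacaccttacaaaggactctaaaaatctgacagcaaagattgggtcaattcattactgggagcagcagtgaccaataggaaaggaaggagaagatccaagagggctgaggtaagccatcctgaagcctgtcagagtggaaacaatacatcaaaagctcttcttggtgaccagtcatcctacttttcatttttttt
Omd, chr13:49582212-49582511 (+): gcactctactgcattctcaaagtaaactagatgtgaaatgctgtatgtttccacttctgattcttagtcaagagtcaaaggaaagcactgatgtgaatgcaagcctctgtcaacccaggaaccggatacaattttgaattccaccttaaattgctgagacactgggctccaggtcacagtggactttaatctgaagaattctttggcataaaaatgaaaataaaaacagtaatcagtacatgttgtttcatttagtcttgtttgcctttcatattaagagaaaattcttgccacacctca
Aspn, chr13:49544193-49544492 (+): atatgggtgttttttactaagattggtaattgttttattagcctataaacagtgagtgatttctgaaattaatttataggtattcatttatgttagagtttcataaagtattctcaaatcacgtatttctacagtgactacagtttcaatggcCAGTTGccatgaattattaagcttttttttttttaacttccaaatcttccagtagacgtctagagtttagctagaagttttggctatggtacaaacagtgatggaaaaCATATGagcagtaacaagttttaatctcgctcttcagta
The Ogn window held 4 E-boxes, of which 1 was CAGCTG, the Aspn window held 2, none of them CAGCTG, and neither the Omd nor the Kera window held any. Over the 9 entries, 7 held CANNTG and 3 held CAGCTG (Ogn, Bgn and 1 of the 2 Podn entries). Of all 32851 RefSeq promoters of that length, 72.3% held CANNTG and 16.3% held CAGCTG. These matches are letters in a window and were not set against binding.

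Biglycan and decorin made up most of this transcript pool. Per kilobase of exon, the mean level over the 5 GFP libraries was 733 ± 44.8 CPM/kb for Bgn, 480 ± 96.1 for Dcn and 176 ± 29.8 for Aspn (SD, n = 5). The next level per kilobase was that of Ogn at 17.3 ± 4.17 CPM/kb, followed by Kera at 8.52 ± 3.16 and Lum at 8.45 ± 2.19, which did not differ beyond their spread. Podn stood at 3.39 ± 0.556 CPM/kb, Prelp at 1.96 ± 0.384 and Omd at 1.89 ± 0.330, the last 2 within their spread of each other, and Fmod at 0.114 ± 0.0489. Fmod had 3 to 21 counts in any library and did not pass the filter of at least 1 CPM in at least 2 libraries, so 9 of the 10 members entered the fits.

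The 10 members together took 0.532% and 0.429% of the counts with 1x and 2x MyoD and 0.609% and 0.569% with 1x and 2x Myf5, against 0.774%, 0.793%, 0.788% and 0.875% with GFP at an MOI of 15, 30, 60 and 120, 0.670% with 1x GFP and 0.604% without virus. Both MyoD libraries held the lowest shares, and the untransduced library lay between the Myf5 libraries.

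**Figure D1:**
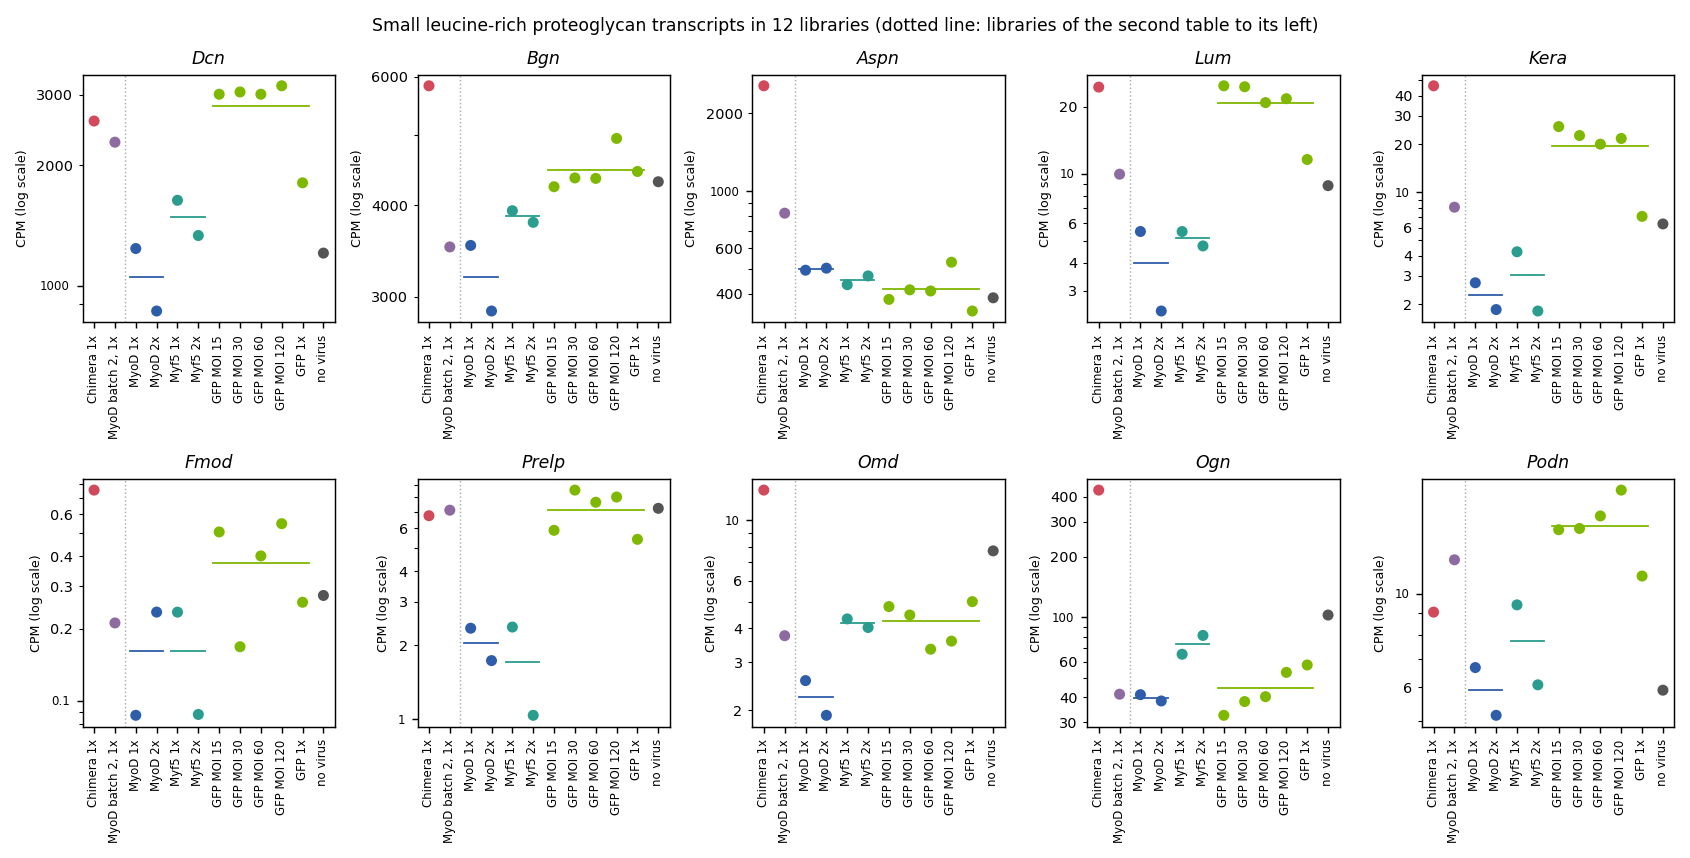
CPM (log axis) of each of the 10 members in all 12 libraries, one panel per gene. Points are single libraries, horizontal lines the means of groups with more than 1 library. The 2 libraries left of the dotted line come from a separate count table. Ogn, Aspn, Kera, Omd, Bgn and Fmod are highest in the Chimera library. Kera and Lum are lowest in the MyoD and Myf5 libraries right of the line. Second-batch MyoD, left of it, had 8.07 CPM of Kera and 9.97 CPM of Lum, above the untransduced library (6.34 and 8.86 CPM).

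Among the class I members, decorin, which binds collagen fibrils and TGF-beta, had 1237 and 864 CPM with 1x and 2x MyoD and 1633 and 1333 CPM with 1x and 2x Myf5. The GFP libraries had 3005, 3045, 3006 and 3155 CPM along the MOI series and 1805 CPM at 1x. All 4 factor libraries lay below all 5 GFP libraries, but the untransduced library, at 1205 CPM, lay between the MyoD libraries. The log2 difference of MyoD from GFP was -1.36 ± 0.22 (SE of the edgeR fit, as for the log2 values that follow) against all 5 GFP libraries and -0.78 ± 0.17 against 1x GFP alone. For Myf5 the values were -0.88 ± 0.22 against all 5 and -0.30 ± 0.18 against 1x GFP.

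Biglycan, the close relative of decorin that carries a pair of glycosaminoglycan chains, had 3527 and 2868 CPM with 1x and 2x MyoD and 3935 and 3793 CPM with 1x and 2x Myf5. The GFP libraries stood at 4244, 4363, 4357 and 4942 CPM along the MOI series and 4453 CPM at 1x, and the untransduced library at 4311 CPM. The factor libraries thus lay below every GFP library and below the untransduced one, by a small amount, at -0.43 ± 0.09 for MyoD and -0.18 ± 0.09 for Myf5 on the log2 scale against all 5 GFP libraries. Against 1x GFP alone they were -0.47 ± 0.12 for MyoD and -0.22 ± 0.12 for Myf5. The count of Bgn over that of Dcn was 2.85 and 3.32 with 1x and 2x MyoD and 2.41 and 2.84 with 1x and 2x Myf5, against 1.41 to 1.57 in the MOI libraries, 2.47 with 1x GFP and 3.58 without virus.

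Asporin, a class I member that carries a run of aspartate residues and no glycosaminoglycan chain, had 493 and 502 CPM with 1x and 2x MyoD and 433 and 469 CPM with 1x and 2x Myf5. With GFP it had 380.0, 414, 409.7 and 529.7 CPM along the MOI series and 343 CPM at 1x, and the untransduced library had 385 CPM. The factor libraries were above 4 of the 5 GFP libraries and below the one at an MOI of 120, with log2 differences of 0.32 ± 0.13 for MyoD and 0.15 ± 0.14 for Myf5 against all 5. Against 1x GFP alone they were 0.55 ± 0.17 for MyoD and 0.38 ± 0.17 for Myf5.

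The class II members held the largest differences. Lumican, a keratan sulfate proteoglycan that spaces collagen fibrils in the cornea and skin, had 5.52 and 2.43 CPM with 1x and 2x MyoD and 5.52 and 4.76 CPM with 1x and 2x Myf5. The GFP libraries had 24.8, 24.5, 20.8 and 21.7 CPM along the MOI series and 11.6 CPM at 1x, and the untransduced library had 8.86 CPM. The factor libraries of Lum lay below all 6 others. Keratocan, its corneal relative and chromosomal neighbour, had 2.72 and 1.85 CPM with 1x and 2x MyoD and 4.25 and 1.81 CPM with 1x and 2x Myf5. Kera levels with GFP were 25.7, 22.6, 20.0 and 21.7 CPM along the MOI series and 7.07 CPM at 1x, and the untransduced library had 6.34 CPM. For both genes every factor library of this table lay below every GFP library and the untransduced one. In both, 1x GFP lay nearer to the untransduced library than to the MOI series.

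Against all 5 GFP libraries, Kera differed by -3.02 ± 0.54 with MyoD and -2.63 ± 0.53 with Myf5 on the log2 scale, and Lum by -2.32 ± 0.37 with MyoD and -1.96 ± 0.36 with Myf5. With 1x GFP alone as the control, Kera differed by -1.62 ± 0.38 with MyoD and -1.24 ± 0.38 with Myf5, and Lum by -1.54 ± 0.34 with MyoD and -1.19 ± 0.34 with Myf5. Both differences were thus smaller against the 1x GFP library.

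Prolargin, which links basement membranes to collagen, had 2.35 and 1.73 CPM with 1x and 2x MyoD and 2.37 and 1.04 CPM with 1x and 2x Myf5. Its GFP levels were 5.88, 8.57, 7.64 and 8.03 CPM along the MOI series and 5.40 CPM at 1x, and the untransduced library had 7.22 CPM. All 4 factor libraries lay below all 6 others, and 1x GFP stood close to the MOI series. The log2 difference was -1.74 ± 0.33 for MyoD and -2.02 ± 0.33 for Myf5 against all 5 GFP libraries and, against 1x GFP alone, -1.40 ± 0.38 for MyoD and -1.68 ± 0.39 for Myf5.

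Osteomodulin, a keratan sulfate proteoglycan of mineralized tissue, was lower in both MyoD libraries of this table than in both Myf5 libraries. It had 2.57 and 1.91 CPM with 1x and 2x MyoD and 4.33 and 4.03 CPM with 1x and 2x Myf5. GFP levels of Omd were 4.81, 4.48, 3.35 and 3.59 CPM along the MOI series and 5.02 CPM at 1x, and the untransduced library had 7.71 CPM. The MyoD libraries were below every other library of the table, whereas the Myf5 libraries lay inside the GFP range. Second-batch MyoD, from the other table, had 3.76 CPM of Omd, which is also inside the GFP range. The log2 difference from all 5 GFP libraries was -0.88 ± 0.21 for MyoD and -0.00 ± 0.20 for Myf5, and from 1x GFP alone -1.15 ± 0.23 for MyoD and -0.28 ± 0.23 for Myf5. Fibromodulin, a collagen-binding relative of lumican, ranged over 0.0869 to 0.234 CPM in the 4 factor libraries and 0.168 to 0.548 CPM in the GFP libraries, which overlapped.

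Osteoglycin, a class III member also named mimecan, was not low with either factor when set against all GFP libraries. It had 41.2 and 38.3 CPM with 1x and 2x MyoD and 65.5 and 81.3 CPM with 1x and 2x Myf5. Its GFP levels were 32.5, 38.1, 40.3 and 53.2 CPM along the MOI series and 57.9 CPM at 1x, and the untransduced library had 103 CPM. The MyoD libraries lay inside the GFP range, the Myf5 libraries above it, and the untransduced library above all of them. The log2 difference was -0.12 ± 0.22 for MyoD and 0.75 ± 0.21 for Myf5 against all 5 GFP libraries, and, against 1x GFP alone, -0.54 ± 0.23 for MyoD and 0.33 ± 0.24 for Myf5.

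Podocan, a class V member, had 6.69 and 5.16 CPM with 1x and 2x MyoD and 9.41 and 6.09 CPM with 1x and 2x Myf5. With GFP, Podn had 14.2, 14.3, 15.3 and 17.6 CPM along the MOI series and 11.0 CPM at 1x, and the untransduced library had 5.91 CPM. The factor libraries lay below all GFP libraries, but the untransduced library lay among them, as for Dcn. The log2 differences from all 5 GFP libraries were -1.23 ± 0.21 for MyoD and -0.86 ± 0.21 for Myf5, and those from 1x GFP alone -0.89 ± 0.24 for MyoD and -0.52 ± 0.25 for Myf5.

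Counted over the members, both MyoD libraries lay below all 5 GFP libraries for 7 of 10 members (Bgn, Dcn, Kera, Lum, Omd, Podn and Prelp), where 28.2% of the 13825 genes tested did, and above them for 0 of 10, where 23.2% of genes did. Both Myf5 libraries lay below all 5 GFP libraries for 6 of 10 members, where 16.6% of genes did, and above them for 1 (Ogn), where 15% did. Only Bgn, Kera, Lum and Prelp were below both the GFP and the untransduced libraries in all 4 factor libraries, 4 of 10 members, where 7.73% of genes were. Nothing is read from these shares, because the members were chosen on these contrasts. The summed fibroblast markers moved the same way, with 15593 and 11535 CPM at 1x and 2x MyoD and 18989 and 16014 CPM at 1x and 2x Myf5, against 21089 to 22117 CPM over the GFP libraries. The single markers were not alike. With MyoD, Col1a1, Col1a2, Fn1, Pdgfra, Pdgfrb and Twist2 lay below all GFP libraries, whereas Fap, S100a4, Thy1 and Vim overlapped them. With Myf5, only Col1a1, Fn1 and Pdgfra lay below all GFP libraries. The differentiating muscle markers summed to 1144 and 3009 CPM at 1x and 2x MyoD and 130 and 295 CPM at 1x and 2x Myf5, against 3.13 to 4.28 CPM over the GFP libraries. The part of either marker list in the member values was not tested. In such bulk libraries, fewer fibroblast-like cells and less of a transcript per cell cannot be told apart.

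**Figure D2:**
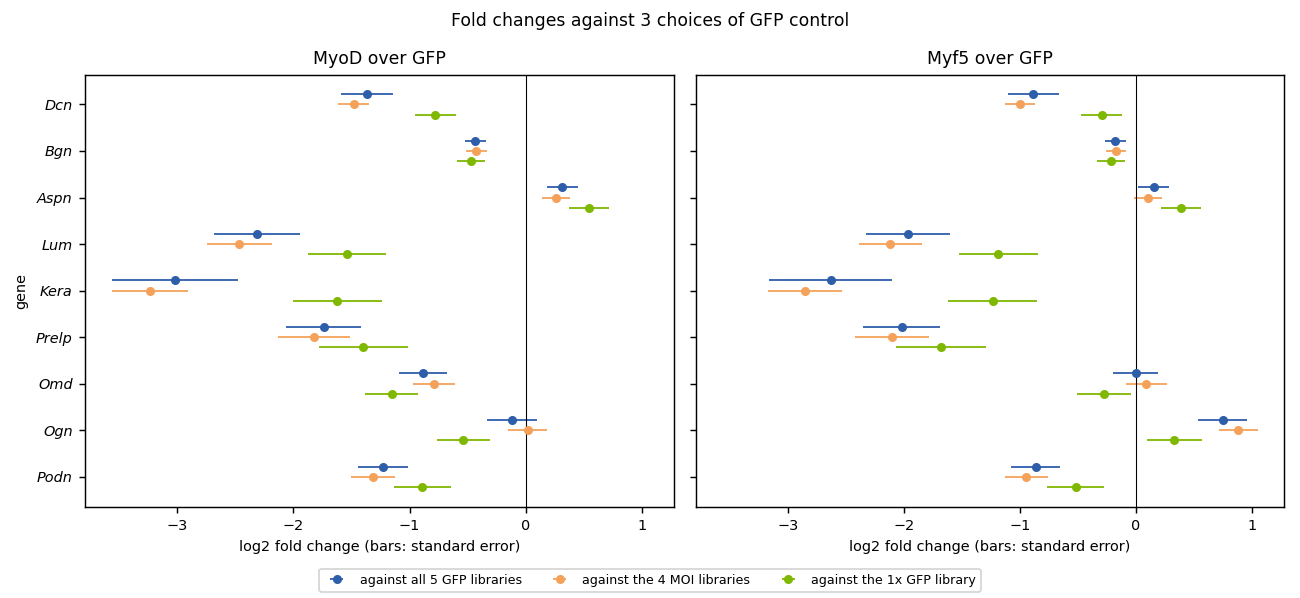
Log2 difference of MyoD and of Myf5 from GFP for 9 members (Fmod left out), with all 5 GFP libraries, the 4 MOI libraries or the 1x GFP library as the control; bars are standard errors of the edgeR fits. Kera, Lum and Dcn lie nearer to 0 against 1x GFP (Kera with MyoD at -1.62) than against the MOI libraries (-3.24), whereas Bgn with MyoD stays between -0.42 and -0.47.

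MyoD and Myf5 were then set against each other, a contrast the choice of members did not use. MyoD libraries were below Myf5 libraries without overlap for Bgn, Dcn, Ogn and Omd, 4 of 10 members, where 33.8% of genes were, and above them for Aspn, 1 of 10, where 29.9% were. In the edgeR quasi-likelihood test with Benjamini-Hochberg adjustment over all genes, 5.5% of genes and 0 of the 9 members tested passed an adjusted p of 0.05, and 3 members had an unadjusted p under 0.05. The nearest were Omd, lower with MyoD by a log2 difference of -0.88 ± 0.23 (adjusted p = 0.064), and Ogn at -0.86 ± 0.26 (adjusted p = 0.086). Called members numbered 2 (Ogn and Omd) with DESeq2, which called 12.7% of all genes, 2 without the 1x GFP library (19.6% of genes) and 1 without the 1x MyoD library (15.3% of genes). With dose as a replicate block, Omd alone passed at -0.89 (edgeR adjusted p = 0.04997), where 10.1% of all genes did. The interferon-response marker sum also differed, at 295 and 281 CPM with 1x and 2x MyoD and 721 and 2350 CPM with 1x and 2x Myf5, as did the differentiating muscle sum given above, and their part was not tested.

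The 2x dose carried lower CPM than the 1x dose for 8 of 10 members with MyoD, where 55.7% of genes were lower, for 8 of 10 with Myf5, where 50% were, and for 7 with both, where 35.6% were. These shares are over the genes that passed the filter, which Fmod did not. Fmod is among the 8 lower with Myf5, with 6 counts at 2x and 16 at 1x, and was higher at 2x MyoD. Lum had 2.43 CPM at 2x and 5.52 CPM at 1x MyoD, and Kera had 1.81 CPM at 2x and 4.25 CPM at 1x Myf5, the lowest ratio of 2x over 1x for each factor among the members that passed the filter. The common effect of 2x over 1x passed the edgeR test for 0 of the 9 members, with 2 at an unadjusted p under 0.05, and for 3 genes in all (0.0217%); DESeq2 called 0 members and 2.1% of genes. Leaving out the 1x GFP library gave 2 called members, with 7.37% of genes called. The dose effects of MyoD and Myf5 were not shown to differ for any member (0 of 9 called, 0% of all genes, 0 at an unadjusted p under 0.05).

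Several members differed between the GFP libraries and the untransduced library. The members were chosen partly for low levels with MyoD and Myf5 against these same GFP libraries. Higher levels with GFP in this contrast are therefore not independent of that choice. All 5 GFP libraries lay above the untransduced library for Dcn, Kera, Lum and Podn, 4 of 10 members, where 32.2% of genes did, and below it for Ogn and Omd, 2 of 10, where 25.5% did. In the edgeR test, which called 8.35% of genes (2.52% higher and 5.83% lower), 3 of 9 members passed. Dcn rose by 1.17 ± 0.30 on the log2 scale (adjusted p = 0.045), Podn rose by 1.24 ± 0.29 (adjusted p = 0.034) and Ogn fell by 1.24 ± 0.26 (adjusted p = 0.023), as the levels above show. Omd differed by -0.89 ± 0.24 (adjusted p = 0.052), Lum by 1.17 ± 0.46 (adjusted p = 0.13) and Kera by 1.55 ± 0.66 (adjusted p = 0.16), while Aspn, Bgn and Prelp differed by at most 0.08 in size.

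These calls depend on which GFP libraries enter. With the MOI libraries alone, 6 members passed (edgeR, with 18.2% of genes called higher and 19.2% lower): Dcn at 1.29 ± 0.18, Kera at 1.77 ± 0.39, Lum at 1.32 ± 0.34 and Podn at 1.32 ± 0.25 were higher than without virus, and Ogn at -1.38 ± 0.20 and Omd at -0.99 ± 0.21 were lower. With 1x GFP alone, 0 passed (edgeR, 4 at an unadjusted p under 0.05, 4.94% of genes called), with Dcn at 0.58 ± 0.21, Ogn at -0.83 ± 0.27 and Podn at 0.90 ± 0.29. Leaving out the MOI 15, 30, 60 or 120 library from the 5 gave 1, 0, 0 and 1 called members. The untransduced group is 1 library, assumed to vary like the others. It held 72.7 M counts and the MOI libraries 17.9 to 22.4 M, so virus, depth and library set cannot be told apart between them.

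Between the GFP sets themselves, 1x GFP was lower than the MOI series in Dcn, with a log2 difference of -0.70 ± 0.17 (adjusted p = 0.020), and in Kera, with -1.62 ± 0.39 (adjusted p = 0.020), in the edgeR test, 2 of 9 members, where 12.1% of genes were called lower. Lum differed by -0.93 ± 0.33 (adjusted p = 0.073) and Ogn by 0.55 ± 0.21 (adjusted p = 0.090). DESeq2 called 4 members and 26.5% of genes. The 1x GFP arm is 1 library, so its spread in this test was borrowed from the other groups. The choice of members also used these GFP libraries. The 1x GFP library held 81.5 M counts and the MOI libraries 17.9 to 22.4 M, and the dose, the depth and the library set cannot be told apart.

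Along the MOI series, 3 of 9 members rose and 0 fell (edgeR, 13383 genes, of which 4.06% rose and 3.42% fell). Ogn had 32.5, 38.1, 40.3 and 53.2 CPM at an MOI of 15, 30, 60 and 120, a slope of 0.23 ± 0.03 on the log2 scale per doubling of MOI (edgeR adjusted p = 8.1e-05). Aspn rose by 0.15 ± 0.02 per doubling (adjusted p = 0.00089) and Bgn by 0.07 ± 0.02 (adjusted p = 0.021). For both, the library at an MOI of 120 was the highest. Without that library the edgeR slopes were 0.15 for Ogn (adjusted p = 0.040), 0.05 for Aspn (adjusted p = 0.40) and 0.02 for Bgn (adjusted p = 0.86). Bgn was also not called without the library at an MOI of 15 (edgeR adjusted p = 0.076) or 30 (edgeR adjusted p = 0.11), and DESeq2 did not call Aspn on all 4 libraries (adjusted p = 0.19).

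The slopes of Dcn (0.02 ± 0.02), Kera (-0.09 ± 0.04), Lum (-0.08 ± 0.04), Omd (-0.17 ± 0.08), Podn (0.11 ± 0.04) and Prelp (0.11 ± 0.07) did not pass the test. Without the library at an MOI of 120, Kera had a slope of -0.18 and passed as falling (edgeR adjusted p = 0.042). Ogn was thus lowest at the lowest MOI and rose with MOI, while all 5 GFP libraries stayed below the 103 CPM of the untransduced library. The sum of 8 interferon-response genes also moved along the series, at 1316, 1915, 2139 and 3414 CPM, against 213 CPM with 1x GFP and 154 CPM without virus, and its part in the member slopes was not tested.

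**Figure D3:**
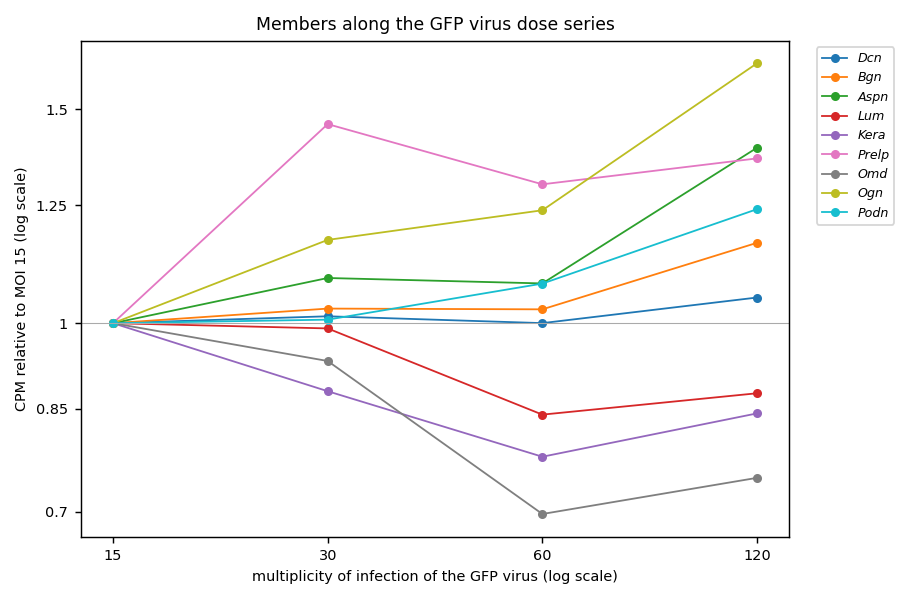
CPM of 9 members (Fmod left out) in the 4 GFP libraries of the MOI series, relative to the library at an MOI of 15 (log axis), against MOI (log axis); each point is 1 library. Ogn, at 53.2 CPM for an MOI of 120 and 32.5 CPM for an MOI of 15, ends highest, Dcn stays near 1, and Omd, Kera and Lum end below 1 without passing the test.

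The Chimera library held the highest share of these transcripts, 1.15% of its counts against 0.669% for MyoD of the second batch. The Chimera library carried 22.1 CPM of Myod1 and 165 CPM of Myf5, whereas the second-batch MyoD library carried 324 CPM of Myod1 and 14.7 CPM of Myf5. With 1 library each there is no test, and the intervals cover counting error only. Ogn had 430.5 CPM with the Chimera and 41.4 CPM with second-batch MyoD, a ratio of 10.4 (95% exact binomial interval 9.73 to 11.1). By log2 ratio with a prior count of 2, Ogn ranked 6 among 13412 genes with at least 50 counts. Nothing is read from this rank, because Ogn was chosen on this contrast.

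Its neighbours on chromosome 13 were also higher with the Chimera. Aspn had 2561 CPM with the Chimera and 821 CPM with second-batch MyoD, a ratio of 3.12 (3.07 to 3.17), and Omd had 12.9 CPM with the Chimera and 3.76 CPM with second-batch MyoD, a ratio of 3.44 (2.71 to 4.40). Ecm2, the next gene of that row, had a ratio of 3.52. The annotation places Cenpp across Aspn, Omd and Ogn, and whether counting used strand is not given, so reads of the overlap cannot be assigned with certainty. Cenpp itself had 3.91 CPM with the Chimera and 4.65 CPM with second-batch MyoD, and 3.75 to 7.77 CPM over all 12 libraries.

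On chromosome 10 the ratios were unequal. Kera had 46.3 CPM with the Chimera and 8.07 CPM with second-batch MyoD, a ratio of 5.74 (4.92 to 6.72). Lum had 24.4 CPM with the Chimera and 9.97 CPM with second-batch MyoD, a ratio of 2.45 (2.11 to 2.86), whereas Dcn, at 2576 CPM with the Chimera and 2281 CPM with second-batch MyoD, had a ratio of 1.13 (1.12 to 1.14). Of the other members, Bgn stood at 5835 CPM with the Chimera and 3510 CPM with second-batch MyoD, a ratio of 1.66 (1.65 to 1.68). Prelp, at a ratio of 0.950 (0.762 to 1.18), could not be told from equality at this depth, Podn was lower at 0.752 (0.629 to 0.898), and Fmod had 19 counts with the Chimera and 5 with second-batch MyoD.

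In all, 5 of the 9 members with enough counts were at least 2-fold higher with the Chimera, where 2.68% of genes were, and 0 were at least 2-fold lower, where 2.32% were. The median log2 ratio was 1.29 over the members and -0.02 over all genes, and nothing is read from it because Ogn was chosen on this contrast. The fibroblast marker sum was 17817 CPM with the Chimera and 14821 CPM with second-batch MyoD. Its genes went both ways. Col1a2 (5564 and 3696 CPM), Col1a1, Fn1, Pdgfra, Thy1 and Fap were higher with the Chimera, and Vim (3063 and 3121 CPM), S100a4, Pdgfrb and Twist2 lower. The differentiating muscle sum was 1157 CPM with the Chimera and 2833 CPM with second-batch MyoD. The interferon-response sum was 2020 CPM with the Chimera and 1073 CPM with second-batch MyoD. The part of these 3 marker lists in the ratios was not tested.

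**Figure D4:**
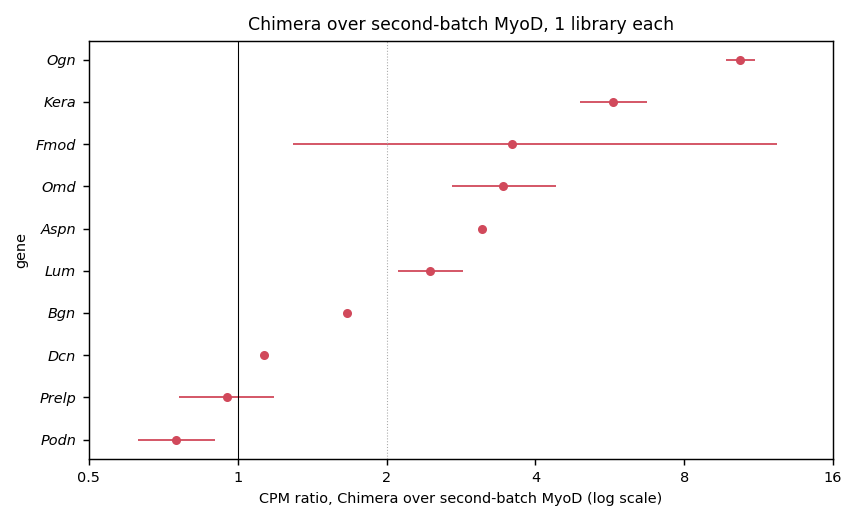
Ratio of CPM in the Chimera library over the second-batch MyoD library (log axis) for the 10 members, with exact 95% binomial intervals that cover counting error only. Ogn stands at 10.4 and Kera at 5.74, Prelp spans 1, and Podn lies below it at 0.752.

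The 2 tables were not fitted together, because mitochondrial genes have counts only in the Chimera table. Left out of the totals, the Chimera level was 5.04 times the highest level of the other table for Aspn, 4.37 times for Ogn, 1.87 times for Kera and 1.74 times for Omd. The same scaling put second-batch over first-batch 1x MyoD, libraries of the same factor and dose, at 1.05 for Ogn and 1.04 for Bgn. The ratio was 1.53 for Omd, 1.74 for Aspn, 1.88 for Lum and Podn, 1.92 for Dcn, 3.10 for Kera and 3.16 for Prelp. These libraries also differed in marker sums, with all genes in the totals. Differentiating muscle stood at 2833 CPM in the second batch and 1144 CPM in the first, and interferon response at 1073 and 295 CPM. Their part in the ratios was not tested. With mitochondrial genes left out, second-batch MyoD held more than 1x GFP for Dcn (2380 against 1805 CPM), Kera (8.42 against 7.07), Podn (12.6 against 11.0) and Prelp (7.40 against 5.40). It held less for Bgn (3663 against 4453 CPM), Lum (10.4 against 11.6) and Omd (3.92 against 5.02). Bgn of second-batch MyoD thus lay below every GFP library (lowest 4244 CPM) and the untransduced one (4311 CPM). Lum also lay below every GFP library, but above the 8.86 CPM of the untransduced library. For Dcn, Kera, Omd, Podn and Prelp, MyoD levels below every GFP library were found only in the table with the GFP libraries.

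Genes that build, bind or cut these proteoglycans were followed in 8 lists, with counts of genes passing the edgeR test in MyoD and Myf5 against all 5 GFP libraries (with MyoD 42.4% of all genes called, 21.4% higher and 20.9% lower, and with Myf5 6.1%, 3.81% higher and 2.29% lower). Of 11 collagens and partners tested, 0 rose and 10 fell with MyoD and 0 rose and 4 fell with Myf5, with median log2 differences of -0.85 with MyoD and -0.64 with Myf5, beside all-gene medians of -0.03 with MyoD and -0.00 with Myf5. Col3a1, a fibril collagen, had 1962 and 1255 CPM with 1x and 2x MyoD and 3455 ± 461 CPM with GFP (SD, n = 5), a log2 difference of -1.05 ± 0.18 (edgeR adjusted p = 0.0026). The collagen VI chains, which bind decorin and biglycan, fell too: Col6a1 fell by 1.02 ± 0.15 with MyoD and 0.90 ± 0.15 with Myf5, and Col6a2 fell by 1.17 ± 0.18 with MyoD and 1.08 ± 0.18 with Myf5. Against 1x GFP alone, 10 collagen genes were called lower with MyoD (30.5% of all genes called) and 0 with Myf5 (1.18% of all genes called). Over the other 7 lists Myf5 then had 2 genes called, both higher: the receptor Met at 0.80 ± 0.13 (edgeR adjusted p = 0.029) and the protease Adamts4 at 1.45 ± 0.21 (edgeR adjusted p = 0.021), the last named after its value was seen. The other genes named here as called with Myf5 lost that call against 1x GFP (edgeR adjusted p between 0.059 for Sgca and 0.23 for Egfr), while those named as called with MyoD also passed against it.

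Among the enzymes that make glycosaminoglycan chains, 5 of 19 chondroitin and dermatan sulfate genes rose and 7 fell with MyoD, and 1 rose and 0 fell with Myf5 (median log2 difference -0.04 with MyoD and -0.00 with Myf5). Chsy1, a chondroitin synthase, rose with MyoD by 0.83 ± 0.07, Chst15, a sulfotransferase, rose by 0.78 ± 0.10 with MyoD and 0.69 ± 0.10 with Myf5, and Csgalnact2, which starts chains, fell with MyoD by 0.64 ± 0.16. Of 7 keratan sulfate genes, 2 rose and 2 fell with MyoD and 1 rose and 0 fell with Myf5 (median -0.35 with MyoD and 0.11 with Myf5): the sialyltransferase St3gal1 rose by 0.57 ± 0.08 with MyoD and 0.41 ± 0.08 with Myf5, and the sulfotransferase Chst2 fell with MyoD by 0.54 ± 0.19.

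Of 5 other small leucine-rich proteoglycans and relatives tested, 0 rose and 1 fell with each factor, namely Tsku by 0.86 ± 0.09 with MyoD and 0.43 ± 0.09 with Myf5 (median log2 difference -0.29 with MyoD and 0.14 with Myf5). Of 15 other proteoglycan cores, 2 rose and 8 fell with MyoD (median -0.40) and 1 rose and 1 fell with Myf5 (median -0.11). The glypican Gpc1 had 185 and 363 CPM with 1x and 2x MyoD and 47.1 ± 2.68 CPM with GFP (SD, n = 5) and rose by 2.60 ± 0.20, and betaglycan (Tgfbr3), a co-receptor of TGF-beta, fell by 1.20 ± 0.14. With the Chimera, Gpc1 had a ratio of 0.337 to second-batch MyoD.

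Of 9 TGF-beta genes, 1 rose (the receptor Tgfbr1, by 0.67 ± 0.08) and 3 fell with MyoD (median -0.35), and 0 rose and 0 fell with Myf5 (median -0.21). Of 8 genes of receptors and membrane partners, 4 rose and 3 fell with MyoD (median 0.33) and 2 rose and 1 fell with Myf5 (median 0.38). The sarcoglycan Sgca, a membrane protein of muscle, had 17.7 and 35.7 CPM with 1x and 2x MyoD and 0.996 and 1.85 CPM with 1x and 2x Myf5, against at most 0.0997 CPM with GFP, while the receptor Egfr fell by 1.52 ± 0.27 with MyoD and 1.26 ± 0.27 with Myf5. Of 10 protease genes, 2 rose and 6 fell with MyoD (median -0.48) and 1 rose and 1 fell with Myf5 (median -0.18). Adamts5, an aggrecan-cutting protease, rose by 0.70 ± 0.12 with MyoD and 0.78 ± 0.12 with Myf5, and Bmp1, which trims the propeptides of procollagens and biglycan, fell by 0.99 ± 0.14 with MyoD and 0.69 ± 0.13 with Myf5.

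Against 1x GFP alone, the MyoD counts and medians of these lists shifted. Chondroitin and dermatan sulfate genes had 2 called higher and 7 lower (median log2 difference -0.10), and keratan sulfate genes 2 higher and 3 lower (-0.26). Other small leucine-rich proteoglycans had 0 higher and 2 lower (-0.65), and other proteoglycan cores 3 higher and 5 lower (-0.13). TGF-beta genes had 1 higher and 3 lower (-0.15), receptors and membrane partners 4 higher and 3 lower (0.06), and proteases 2 higher and 4 lower (-0.41). The Myf5 medians were -0.59 for collagens and between -0.18 and 0.11 for the other lists, beside an all-gene median of -0.00.

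The genes whose log2(CPM + 0.5) followed a member most closely over the 10 libraries of the MyoD, Myf5 and GFP table, among 11141 genes with a mean of at least 5 CPM, were ranked by Pearson's r, which depends here on the few libraries that differ in virus and depth. For Dcn they were Lsp1 (r = 0.997), Kdm5b, Rab36, Ciz1 and Zbtb4 (r = 0.993), for Lum Col3a1 (r = 0.992), Adamts10, Smarcd2, Rgma and Rgs3 (r = 0.991), and for Ogn Gria3 (r = 0.961), Capza2, Vgll3, Svep1 and Fbxo33 (r = 0.948).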

How the data were processed

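Poly(A) RNA-seq of 12 libraries was read from 2 gene tables. The submitters' processing notes name CASAVA 1.8.2 for base calling and TopHat2 2.0.8 for alignment, with mm9 as the genome; neither the gene counting step nor its use of strand is stated there. The authors deposited expected counts (not whole for some genes) in the first table, which were rounded, and whole-number counts in the second. Of 37287 IDs, 32610 were matched to symbols of GENCODE vM21. No column was left unused. Of each second-table library, 4.05% or 4.18% lay in 37 mitochondrial genes, which the first table lists at 0.

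In R 4.3.3, edgeR 4.0.16 was fitted to the first table with TMM scaling and two-sided quasi-likelihood tests. The threshold was 0.05 on the Benjamini-Hochberg adjusted p. Genes that reached 1 CPM in 2 or more libraries were kept, 13825 genes and, along the MOI series, 13383. The group fit had 6 residual degrees of freedom. The fits with the MOI libraries or the dose set apart had 5, the dose interaction 4 and the MOI series 2. Levels per kilobase use the summed exons of GENCODE vM21. Standard errors come from the F statistic. The values against 1x GFP or the MOI libraries alone were fitted with those 4 libraries as a separate group. The second table gives CPM ratios with exact 95% binomial intervals and log2 ratios with a prior count of 2. The steps were tested on simulated data. DESeq2 1.42.0, other scaling, no filter and leaving out each library were tried. Labels do not say that libraries came from separate cultures, so p-values measure the spread between these libraries. The equal dose labels of MyoD and Myf5 were used as a block only as an alternative.

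The members, lists and tests were chosen with earlier results of these data known. Named genes are all members, up to 3 called genes per direction of each list by smallest p (a selection of these is printed), the 5 genes most like Ogn, Lum and Dcn, and Myod1 and Myf5 as a label check; Ecm2 and Cenpp, neighbours of members, were added after their values were seen. Promoter sequences are RefSeq's, matched by symbol, in GRCm38.p6, which is not the build of the files, and no position was converted.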

Additional observations from a re-analysis of the deposited data

Results flagged for a closer look

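Dcn stood apart in 1 of the 5 GFP libraries: 1805 CPM with 1x GFP, while the nearest of the others had 3005 CPM. The gap was 0.889 of the range of the 5 libraries, above Dixon's critical value of 0.71, which chance exceeds in about 1 in 20 groups of like libraries. That rate holds for 1 group named in advance, whereas Dcn was flagged from its values. The 4 other GFP libraries are the MOI series, so the library set and its depth cannot be told apart from this difference. Kera and Lum were also lowest with 1x GFP, at 7.07 and 11.6 CPM, while the nearest of the others had 20.0 and 20.8 CPM.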

How the results depend on the processing

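Of the counts of members, the number called for GFP against untransduced was 3, 6 with DESeq2, 6 with the MOI libraries alone, 0 with 1x GFP alone, and 0 to 6 with a GFP library left out. For MyoD against Myf5 it was 0, 2 with DESeq2, 1 with dose as a replicate block (the labels share dose names, and no source says that they pair the libraries), and 0 to 2 with a library left out. It was 0 to 2 for dose, 2 to 3 for the MOI trend and 2 to 3 for 1x GFP against the MOI series with a library left out, and 4 for the last with DESeq2. Without 1 library, MyoD lay below all GFP libraries for 7 to 8 members and Myf5 for 6 to 7. The dose interaction stayed at 0 called. Some uncalled log2 values changed sign when a library was left out. Along the MOI series, Dcn ran between -8.79e-06 (without MOI 120) and 0.027, and Prelp between -0.044 (without MOI 15) and 0.17. For GFP against untransduced, Aspn ran between -0.040 (without MOI 120) and 0.11, Bgn between -0.027 (without MOI 120) and 0.031, with -0.00323 without 1x GFP, and Prelp between -0.15 and 0.0019 (without 1x GFP). For MyoD against Myf5, Kera ran between -0.87 and 0.37 (without 1x Myf5), Lum between -1.04 and 0.11 (without 2x MyoD) and Prelp between -0.19 (without 2x Myf5) and 1.01. For dose, Ogn ran between -0.068 (without 2x Myf5) and 0.32, with -0.052 without 1x Myf5. For GFP against untransduced, Aspn stood at -0.17 with 1x GFP alone, Bgn at -0.033 with no filter and -0.00087 with the MOI libraries alone, and Prelp at 0.0043 with the MOI libraries alone. The cause of these changes was not tested. Depth limits Fmod, with 3 to 21 counts in a library, and 1 library per dose and factor in the fitted table limits the contrasts of MyoD and Myf5.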
